A study of Mus musculus with 6 samples.

Results

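Voltage-gated calcium channel genes were described in the wild-type mouse retina. They were taken from the tables by symbol, from a list of named subunits. Of 10 genes named, 9 were found among the 15465 genes of the deposited tables: Cacna1f, Cacna2d4, Cacnb2 and Cabp4, which build or regulate the channel of the photoreceptor synapse, and Cacna1d, Cacna1a, Cacna1b, Cacna2d1 and Cacnb4, which serve other channels or other cells. Cacna1e was not analysed here. The samples were 3 biological replicates of isolated retina of C57BL6/J mice with a Wild Type genotype, each a pool of 5 mice sequenced as 2 technical replicates that share 1 column of values, so n was 3. The sources used here do not give age, sex or treatment. This grouping follows the sample titles. The source labels pair the 6 samples in another way, and if they were right the 3 columns would not be independent.

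A voltage-gated calcium channel has a pore-forming alpha1 subunit, which opens on depolarisation and sets the channel's type, a cytoplasmic beta subunit, which brings the pore to the membrane and tunes its gating, and an extracellular alpha2delta subunit, which helps to place the channel at release sites. Rods and cones release glutamate steadily in darkness from ribbon synapses, and the calcium for this release enters through L-type channels that inactivate little. Cacna1f encodes the pore of that channel, Cacna2d4 its alpha2delta subunit and Cacnb2 its beta subunit, and Cabp4 encodes a calcium-binding protein that binds the pore and lets it open at more negative voltage. Loss of Cacna1f, Cacna2d4 or Cabp4 disturbs transmission from photoreceptors to bipolar cells in mice and humans.

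All 6 rod markers, all 6 cone markers and all 6 bipolar cell markers exceeded 1 RPKM (reads per kb of transcript, normalised to sequencing depth, the unit inferred for the deposited values) in every replicate, and the medians of these lists were 1084, 91.1 and 35.6 RPKM. Of all genes, 77.5% reached 1 RPKM in every replicate. Markers of adjoining tissue were also present and differed between pools. Summed over 5 genes, pigment epithelium markers had 371, 351 and 188 RPKM in replicates 1, 2 and 3, lens markers 2396, 1749 and 2152, and skeletal muscle markers 7.99, 21.5 and 5.89. Their part in the results was not tested. The values of all genes summed to between 249532 and 302634 RPKM, and the number of reads behind them is unknown. In whole tissue, fewer cells of a type and less RNA per cell cannot be told apart.

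The 4 genes of the photoreceptor synapse channel were all abundant, and the 5 other subunits were all lower, with Cacna1a near the middle of all genes. Cacna1f had 72.14, 77.94 and 77.78 RPKM in replicates 1, 2 and 3 (mean 76.0 ± 3.30, SD, n = 3). Cacna2d4 had 74.42, 79.29 and 78.33 RPKM (77.3 ± 2.58). Both genes varied by a few RPKM between pools, and their ranges overlapped each other. Cabp4, the sensor, had 117.9, 126.39 and 96.01 RPKM (113 ± 15.7), with replicate 3 lowest but still above every value of the other members. Cacnb2 had 27.28, 28.7 and 27.6 RPKM (27.9 ± 0.745), the lowest level of the photoreceptor genes and the one that varied least.

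Among the other subunits the highest was Cacna1a, the pore of P/Q-type channels that drive release at many brain synapses, with 6.88, 5.48 and 6.53 RPKM (6.30 ± 0.729). Cacna1d, an L-type pore known from inner hair cells, endocrine cells and also the retina, had 3.82, 3.72 and 4.20 RPKM (3.91 ± 0.253). Cacna1b, the N-type pore of presynaptic terminals, had 3.45, 3.00 and 3.73 RPKM (3.39 ± 0.368). These alpha1 genes lay close together, and in each replicate their order was Cacna1a, Cacna1d, Cacna1b. Cacna2d1, an alpha2delta subunit that binds gabapentin, had 2.62, 2.83 and 3.24 RPKM (2.90 ± 0.315). Cacnb4, the beta subunit mutated in the lethargic mouse, had 2.41, 2.93 and 2.90 RPKM (2.75 ± 0.292). The ranges of Cacna2d1 and Cacnb4 overlapped.

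**Figure D1:**
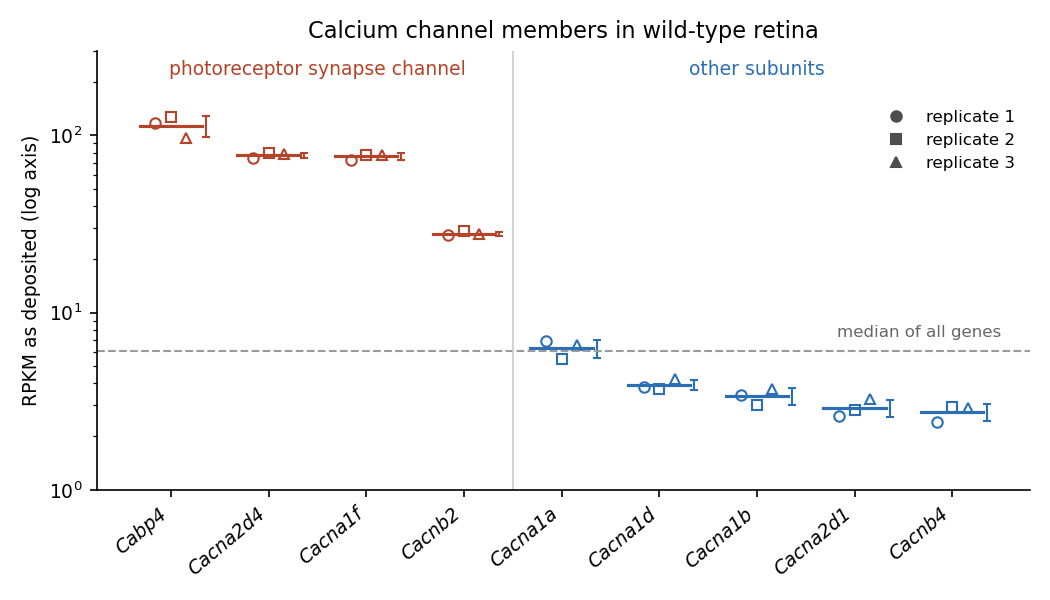
Levels of the 9 members in RPKM on a log axis, with 1 point per replicate, the mean as a horizontal line and the SD (n = 3) as an error bar at its right; the dashed line is the median of all genes. The 4 photoreceptor synapse genes lie between 27.28 and 126.39 RPKM, and the 5 other subunits between 2.41 and 6.88 RPKM.

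The lowest value of the photoreceptor genes, 27.28 RPKM, was 3.97 times the highest value of the others, 6.88 RPKM, so the sets did not overlap in any replicate. All 9 members reached 1 RPKM in every replicate, as did 77.5% of all genes. At 10 RPKM in every replicate there were 4 of 4 photoreceptor genes and 0 of 5 other subunits, against 33% of all genes. By mean level Cabp4 exceeded 98.3% of all genes, Cacna2d4 96.9%, Cacna1f 96.8% and Cacnb2 86.6%. Cacna1a was near the middle, above 50.2% of genes, and the remaining subunits exceeded between 32.7% (Cacnb4) and 39.4% (Cacna1d). The median of the photoreceptor genes was 76.7 ± 2.93 RPKM, that of the other subunits 3.39 ± 0.368 and that of all genes 6.09 ± 0.396 (SD, n = 3).

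Going down the order of means, Cabp4 exceeded Cacna2d4 1.46-fold with no overlap of their values. Cacna2d4 and Cacna1f were not separated, with a ratio of 1.02 and overlapping ranges. Cacna1f exceeded Cacnb2 2.72-fold, and Cacnb2 exceeded Cacna1a 4.39-fold, the widest step. Cacna1a exceeded Cacna1d 1.59-fold without overlap. The ranges of Cacna1d and Cacna1b overlapped, as did those of Cacna1b and Cacna2d1 and those of Cacna2d1 and Cacnb4.

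The photoreceptor synapse channel was then set against the other subunits within each replicate, as the difference of mean log2(RPKM + 0.1) after scaling between replicates. The geometric means were 64.5, 68.8 and 63.4 RPKM for the photoreceptor genes in replicates 1, 2 and 3, against 3.57, 3.48 and 3.95 RPKM for the other subunits. The difference was 4.14, 4.26 and 3.97, a mean of 4.13 ± 0.15 (SD, n = 3) or 17.4-fold, higher in 3 of 3 replicates. The 3 pairs of like subunits differed in the same direction. Cacna1f exceeded Cacna1d by 4.24 ± 0.09 on this scale (19.0-fold), Cacna2d4 exceeded Cacna2d1 by 4.70 ± 0.12 (25.9-fold), and Cacnb2 exceeded Cacnb4 by 3.30 ± 0.13 (9.86-fold). Each difference of the set and the 3 pairs was many times its SD between replicates. The second genes of the pairs were low for their classes. Cacna2d1 and Cacnb4 had the lowest means of the alpha2delta and beta genes, and Cacna1d was among the lower alpha1 genes. Against the next highest gene of each class the log2 differences were smaller. They were 1.92 for Cacna1f over Cacna1h and 2.39 for Cacna2d4 over Cacna2d2. For Cacnb2 over Cacnb3 the difference was 0.26 ± 0.25. An exact two-sided sign-flip test of the set and the 3 pairs gave p = 0.25 for each of the 4 differences (Benjamini-Hochberg adjusted p = 0.25). That is the smallest value that 3 replicates allow, so no difference could pass 0.05. The members were also chosen with earlier results of these data known, so the test cannot serve as support for the contrast.

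**Figure D2:**
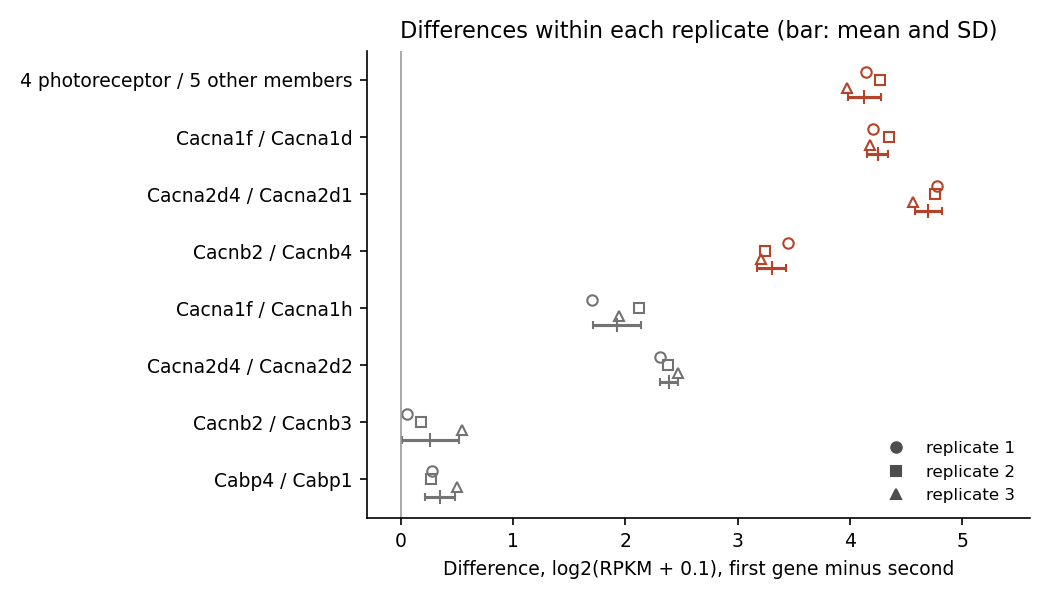
Differences on the log2(RPKM + 0.1) scale, first gene minus second, with 1 point per replicate and a bar for the mean and SD (n = 3). The set and its 3 class-matched pairs (red) lie between 3.21 and 4.78, while against the next gene of each class (grey) the differences run down to 0.06.

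These levels are per kb of transcript, and the division bears on the comparison because Cabp4 and Cacnb2 have short transcripts, at 1.43 and 2.12 kb, while Cacnb4 is listed at 8.04 kb (the median over GENCODE transcripts linked to RefSeq). Multiplication by length is meant to give back a value that follows reads, which grow with transcript length, and it does not count transcripts. The lengths behind the deposited values are unknown, so the lengths used here may not undo that division. For Cacnb2 the longest RefSeq-linked transcript has 3945 bases, well above the median used. After multiplication by length the set difference was 3.10 on the log2 scale and that of Cacnb2 against Cacnb4 was 1.42, in place of 3.30. The lowest photoreceptor value, that of Cacnb2, was then 57.8 RPKM × kb, against 53.4 for the highest other value, that of Cacna1a. On this scale Cabp4 averaged 163 RPKM × kb and stood below Cacna1f (462) and Cacna2d4 (449), so its first place depends on the division by length.

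**Figure D3:**
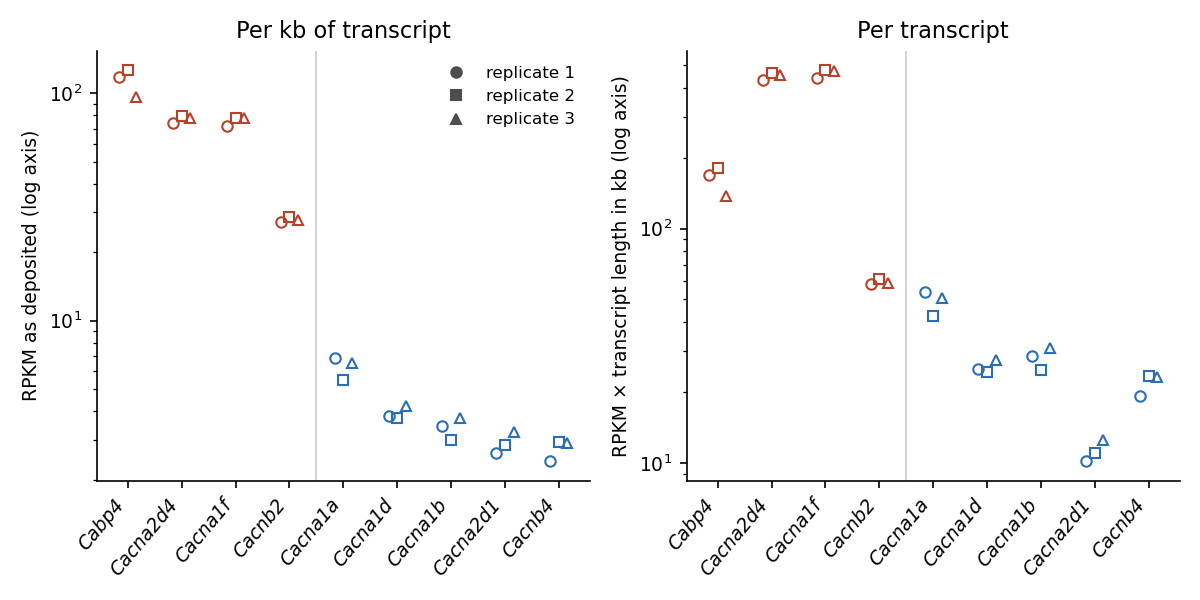
Member levels per replicate in RPKM (left) and in RPKM multiplied by transcript length in kb (right), both on log axes. The right panel, although headed Per transcript, is meant to follow reads and does not count transcripts. Its lengths may differ from those behind the deposited values. Multiplication moves Cabp4 below Cacna1f and Cacna2d4 and brings Cacnb2, at 57.8 or more, close to Cacna1a, at 53.4 or less.

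The pore and the alpha2delta subunit of the photoreceptor channel had almost equal levels per kb. The ratio of Cacna2d4 to Cacna1f in RPKM was 1.03, 1.02 and 1.01 in replicates 1, 2 and 3 (1.02 ± 0.0123), and with lengths multiplied back it was 0.972 ± 0.0118. Cacnb2 stood at 0.378, 0.368 and 0.355 of Cacna1f (0.367 ± 0.0117), so the beta gene was lower in every pool, and with lengths multiplied back it stood at 0.128 ± 0.00407. Cabp4 stood at 1.63, 1.62 and 1.23 times Cacna1f, with replicate 3 apart from the others. With the lengths used here multiplied back, that ratio was 0.353 ± 0.0536, so the direction turned under these lengths. Among the other listed subunits, Cacna2d1 stood at 0.739 ± 0.0466 of the L-type pore Cacna1d and Cacnb4 at 0.703 ± 0.0791 in RPKM. With lengths multiplied back these ratios were 0.437 ± 0.0276 and 0.861 ± 0.0969. The genes were set together as listed members, and whether their products share a channel was not tested. Cacna2d2 (14.7 RPKM) and Cacnb3 (23.5 RPKM) were higher than Cacna2d1 and Cacnb4.

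RefSeq promoters (GRCm38.p6, 250 bases before to 50 after each start) were available for 6 of the 9 members, with 10 starts in all. None was available for Cacna2d4, Cabp4 or Cacna1a, so of the photoreceptor set only Cacna1f and Cacnb2 were searched. The promoters of Cacna1f (chrX:7606853-7607152, plus strand), both starts of Cacnb2 (chr2:14604056-14604355 and chr2:14823842-14824141, plus strand) and both starts of Cacna1d (chr14:30491107-30491406 and chr14:30353437-30353736, minus strand) are shown to set the photoreceptor pore and beta genes beside another L-type pore, read 5′ to 3′ along the gene. Capitals mark TAATC on either strand, the core that homeodomain factors of the photoreceptor such as CRX recognise.
Cacna1f: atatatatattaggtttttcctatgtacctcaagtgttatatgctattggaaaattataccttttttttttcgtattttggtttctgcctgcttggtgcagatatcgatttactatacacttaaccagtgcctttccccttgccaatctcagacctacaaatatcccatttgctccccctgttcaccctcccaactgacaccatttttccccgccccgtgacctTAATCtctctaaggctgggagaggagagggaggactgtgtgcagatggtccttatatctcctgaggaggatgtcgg
Cacnb2, first start: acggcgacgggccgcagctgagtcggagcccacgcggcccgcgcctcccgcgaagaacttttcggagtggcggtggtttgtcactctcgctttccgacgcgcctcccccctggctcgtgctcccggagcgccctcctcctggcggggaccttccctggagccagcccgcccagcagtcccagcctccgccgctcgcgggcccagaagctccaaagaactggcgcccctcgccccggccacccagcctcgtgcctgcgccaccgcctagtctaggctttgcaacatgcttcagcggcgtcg
Cacnb2, second start: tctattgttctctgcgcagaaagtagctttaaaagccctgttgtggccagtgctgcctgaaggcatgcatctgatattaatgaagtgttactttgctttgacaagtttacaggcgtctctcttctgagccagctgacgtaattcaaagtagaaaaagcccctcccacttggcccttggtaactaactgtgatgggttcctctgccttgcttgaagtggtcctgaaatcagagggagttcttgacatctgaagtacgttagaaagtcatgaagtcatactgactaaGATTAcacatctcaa
Cacna1d, first start: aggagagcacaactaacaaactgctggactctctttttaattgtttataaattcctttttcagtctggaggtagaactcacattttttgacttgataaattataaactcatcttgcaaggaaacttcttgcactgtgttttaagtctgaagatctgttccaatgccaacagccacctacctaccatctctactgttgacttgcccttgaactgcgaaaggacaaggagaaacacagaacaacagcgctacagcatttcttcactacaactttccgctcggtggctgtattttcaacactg
Cacna1d, second start: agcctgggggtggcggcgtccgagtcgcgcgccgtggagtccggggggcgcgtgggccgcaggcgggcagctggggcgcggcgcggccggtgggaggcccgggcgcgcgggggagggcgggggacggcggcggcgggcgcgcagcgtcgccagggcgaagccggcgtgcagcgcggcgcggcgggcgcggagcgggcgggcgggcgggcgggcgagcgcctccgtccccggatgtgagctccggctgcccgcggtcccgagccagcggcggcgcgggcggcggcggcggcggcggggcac

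TAATC was found at 2 of the 10 member starts. In Cacna1f it began 26 bases before the start, and at the second start of Cacnb2 it lay 35 bases after the start on the opposite strand. The same letters occurred in 15.7% of the 13852 promoters of genes in the files and in 22% of all 32851. TGCTGA, part of the site of the rod factor NRL, was searched on both strands as well. The motifs can share bases and each was counted on its own. TGCTGA was found at 0 of the 10 starts, against 16.1% of promoters of genes in the files. The starts also differed in base composition. Cacna1f had 5 CpG dinucleotides and 43.7% G or C. Cacnb2 had 35 CpG at its first start and 4 at its second, and Cacna1d had 4 at its first start and 63 at its second, against a median of 19 over promoters of genes in the files. The tables do not separate transcripts by start, and a match is a description only.

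Within the alpha1 family Cacna1f took 57.3% ± 2.87 of the summed RPKM of the 9 genes found. The 4 L-type genes took 64.1% ± 3.00, and among these Cacna1f held 89.4% ± 0.319, Cacna1s 4.96%, Cacna1d 4.61% and Cacna1c, the pore of heart and smooth muscle, 1.06%. The 3 T-type genes, whose channels open at low voltage, took 28.6% ± 2.40. They were led by Cacna1h (20.0 ± 2.16 RPKM) and Cacna1g (12.8 ± 0.737), and Cacna1i had 5.14 ± 0.662. Cacna1a and Cacna1b together took 7.30% ± 0.668. Cacna1f exceeded Cacna1h, the next gene of the class, by 1.92 ± 0.21 on the log2 scale, in 3 of 3 replicates. Cacna1s, the pore of skeletal muscle, had 4.21, 4.53 and 3.90 RPKM in replicates 1, 2 and 3. As deposited it was highest in the replicate where the muscle markers were highest. After scaling between replicates its SD was 0.02 on the log2 scale, so it varied little there. The part of muscle in its level was not tested.

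Cacna2d4 took 72.6% ± 0.964 of the alpha2delta genes. Cacna2d2, whose loss causes the ducky phenotype in mice, followed with 13.8% ± 0.682 and Cacna2d3 with 10.9% ± 1.08, and Cacna2d1 had 2.72% ± 0.282. Cacna2d4 exceeded Cacna2d2 by 2.39 ± 0.08 on the log2 scale. The beta genes were shared more evenly. Cacnb2 took 47.7% ± 3.34 and Cacnb3 39.9% ± 4.18, ahead of Cacnb1 (7.70%) and Cacnb4 (4.72%). Cacnb2 had 27.28, 28.7 and 27.6 RPKM, against 26.21, 25.35 and 18.89 RPKM for Cacnb3, a difference of 0.26 ± 0.25 on the log2 scale, higher in 3 of 3 replicates. That difference was about as large as its SD, and with lengths multiplied back Cacnb2 was higher in 1 of 3 replicates, so the order of these 2 genes was not settled.

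**Figure D4:**
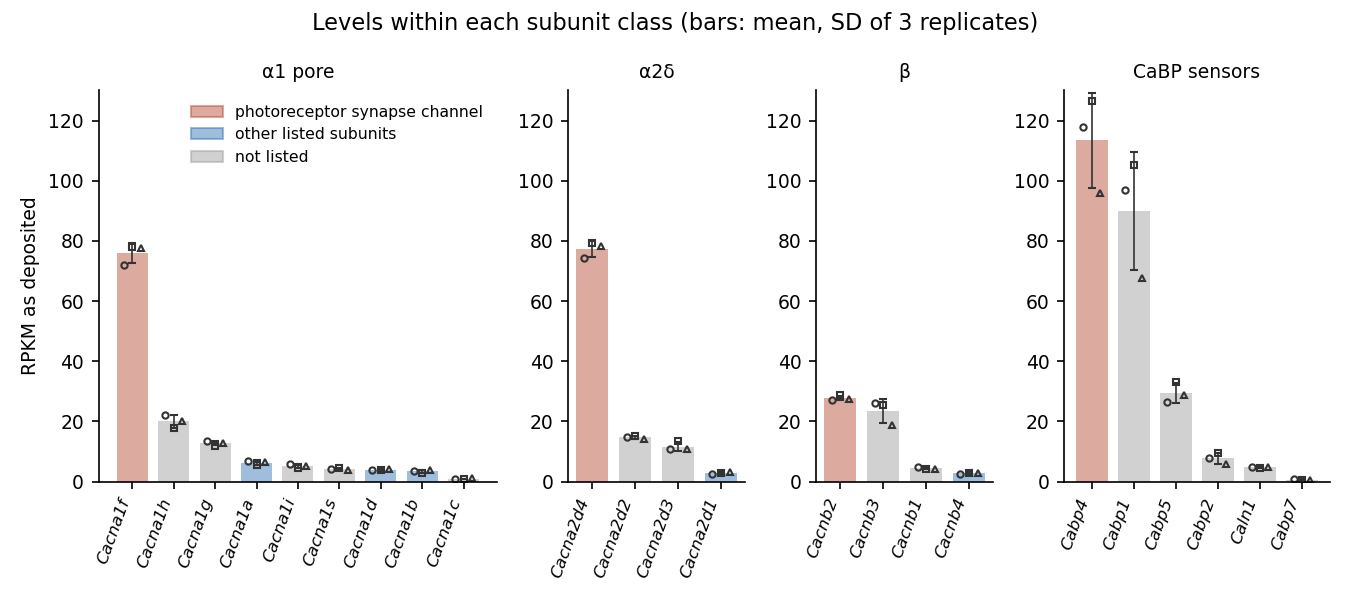
Levels in RPKM of every gene found in the alpha1, alpha2delta, beta and CaBP families; bars are means, error bars the SD over 3 replicates and points the replicates. Cacna1f and Cacna2d4 stand far above the rest of their classes, while Cacnb2 and Cacnb3 lie close together.

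Cabp4 was the first of the CaBP genes, a family of calcium sensors related to calmodulin, with 46.2% ± 0.889 of their summed RPKM. Cabp1 held 36.3% ± 2.68, with 97.0, 105.14 and 67.78 RPKM, and Cabp5, found in bipolar cells, 12.1% ± 1.88. Cabp4 exceeded Cabp1 by 0.35 ± 0.13 on the log2 scale, in 3 of 3 replicates, and both were lowest in replicate 3. Cabp2 had 7.73 ± 1.82 RPKM, Caln1 4.84 ± 0.208 and Cabp7 0.653 ± 0.183. The next gene of each class was chosen after its values were seen, so these differences carry no test.

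The replicates were compared for each member. On the log2 scale the SD between pools was 0.08 for Cacnb2, 0.11 for Cabp4 and Cacna2d4 and 0.12 for Cacna1f. It was between 0.17 (Cacnb4) and 0.27 (Cacna1a) for the other subunits, and the median was 0.15 over the 12562 genes that averaged at least 1 RPKM. Spread also depends on level. Among the 200 genes nearest in mean, between 21% (Cacnb2) and 33.5% (Cabp4) had a smaller SD than the photoreceptor gene, and between 52% (Cacnb4) and 82% (Cacna1a) a smaller SD than the other subunit. A limma test compared the variance of each gene with that of genes of like level. In it 0 of 9 members were called at an adjusted p under 0.05, against 5.44% of all genes tested. At an unadjusted p under 0.05 the count was also 0 of 9 members, against 1051 of the 12562 genes. No member has a symbol that is another symbol plus digits, or that becomes one with digits added. Without such symbols 185 of 10688 genes were called at an adjusted p under 0.05, so 0 of 9 members called says little. With limma's non-robust prior no gene at all was called, so the 0 of 9 there carries no information, and at an unadjusted p under 0.05 it was 0 of 9 against 704 of the 12562. The adjusted p was 0.993 for each member (limma).

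**Figure D5:**
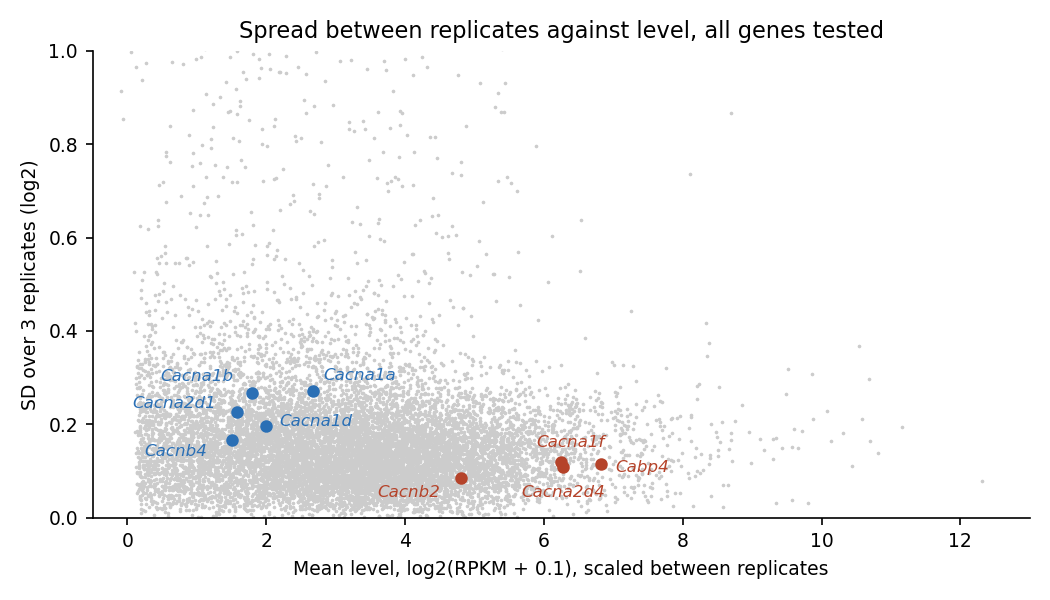
SD over 3 replicates against mean level, both on the log2(RPKM + 0.1) scale after scaling, for 12562 genes (grey) with the 9 members marked; 555 genes lie above the upper limit of 1. The photoreceptor genes (red) lie at or under 0.12 and the other subunits (blue) between 0.17 and 0.27.

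Reads that could be shared with other genes were looked for in the transcripts. None of the 50-base windows of a member's longest RefSeq-linked transcript occurred in the longest such transcript of another member. Cacna1f, Cacna2d4 and Cacna2d1 shared none with any gene. Cabp4 had 8.17% of its windows in transcripts of other genes and Cacnb2 5.26%. Among the other subunits Cacnb4 had 16.5%, spread over 519 genes, and Cacna1d 6.23%. Of the genes that shared windows with Cacnb4, 2 had symbols beginning with Cacn or Cabp. Exons overlapped genes of the opposite strand in Cabp4 (Gpr152, 131 bases), Cacnb2, Cacna1d (Chdh, 589 bases), Cacna1a and Cacnb4. The sources used here do not say whether counting used strand, so these levels are less certain than those of Cacna1f and Cacna2d4.

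Partners of the channel at the ribbon synapse were read beside it. All 22 genes of this list had 1 RPKM or more in every replicate and 17 had 10 or more, with a median of 34.3 ± 1.04 RPKM. The same levels were reached in every replicate by 77.5% and 33% of all genes. Dlg4 (210 ± 10.1 RPKM) and Mpp4 (157 ± 17.2), membrane scaffolds found in photoreceptor terminals, exceeded Cacna1f per kb, as did Stx3 (130 ± 10.3), the syntaxin of ribbon synapses, the vesicular transporter Slc17a7 (696 ± 83.6) and the complexin Cplx4 (222 ± 34.3). Unc119, a photoreceptor protein that carries lipid-modified proteins and also binds the ribbon, was highest of the list (1820 ± 310). Ctbp2, which also encodes the ribbon protein RIBEYE, had 70.1 ± 3.75 RPKM, per kb near Cacna1f and Cacna2d4. Elfn1, an adhesion protein of the rod synapse, had 47.3 ± 3.73. The active-zone genes were lower, with Rims2 at 27.2 ± 1.66, Bsn at 9.85 ± 1.57, Rims1 at 6.42 ± 0.101, Rimbp2 at 5.08 ± 0.329 and Erc2 at 4.52 ± 0.280. Ano2, a calcium-activated chloride channel of photoreceptor terminals, had 22.7 ± 1.49.

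Of 11 genes for calcium removal and stores, all had 1 RPKM or more in every replicate and 5 had 10 or more. They were Slc24a1, the exchanger of the rod outer segment (209 ± 20.9 RPKM), the store pump Atp2a2 (38.9 ± 1.06), the plasma membrane pumps Atp2b1 (27.4 ± 0.864) and Atp2b2 (18.3 ± 1.30), and the sodium-calcium exchanger Slc8a3 (15.8 ± 0.490). Of the 12 calcium sensors, 11 had 1 RPKM or more and 8 had 10 or more. For all genes the shares at these levels in every replicate were 77.5% and 33%. Rcvrn (1288 ± 270 RPKM), Calm3 (235 ± 28.4) and Calb2 (188 ± 35.0) were among the highest, all above Cabp4 per kb.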

How the data were processed

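RNA of isolated wild-type retina was measured in 3 biological replicates (6 samples, 2 technical replicates sharing 1 table), each a pool of 5 mice, per the labels. The deposited values were taken as RPKM from the values themselves: 2 decimals, and products with transcript length in kb that summed to between 685616 and 779326 per replicate. They may equally be FPKM. Reads were handled with GSNAP and HTSeq on build mm9, per the submitters' processing notes, and the sources used here name no annotation, filter or strand setting. The tables held 15468 rows, and 3 symbols on 2 identical rows were kept once. Low values did not fall on whole reads (best agreement 0.134 on a scale from 0 to 1), so depth is unknown and no counting interval is given.

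Values were divided by scaling factors of 0.983, 1.09 and 0.932 (trimmed mean of log ratios, leaving out 30% of the ratios and 5% of the means at either end) for differences on log2(RPKM + 0.1), which understates folds of low genes. Levels, ratios and shares use values as deposited. Variation between replicates was tested by an F test against a robust trended prior in limma 3.58.1 with Benjamini-Hochberg adjustment (statmod 1.5.0, R 4.3.3), on the 12562 genes that averaged at least 1 RPKM, and the script was tested on simulated data. The 4 differences were tested by an exact sign-flip test over replicates. Transcript lengths (GENCODE M21) were found for 90.2% of genes. All 9 members found were named. Of each context list the leading genes and those the comparison needs were named, and several more partners were added for their role. The value of 1 calcium sensor is not reported here. The members and lists were chosen with earlier results of these data known. No gene was sought by likeness of pattern, because a correlation over 3 columns is not reported.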

Additional observations from a re-analysis of the deposited data

How the results depend on the processing

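The alternatives were a pseudocount of 1, no scaling, multiplication by transcript length, other memberships of the sets and leaving out each replicate. The set difference (4.13 on the log2 scale) ran from 3.10, with lengths multiplied back, to 4.46, by the median of members. It was 3.86 without Cabp4 and 3.63 against every other subunit gene in the files, a comparison chosen after seeing the data. Those genes include the gamma family, in which Cacng1 (0.0767 RPKM) and Cacng6 (0.02 RPKM) lay below the pseudocount of 0.1. Such values lower the mean of the genes compared against and so enlarge the difference. Cacna1f against Cacna1d ran from 3.97 to 4.28, Cacna2d4 against Cacna2d1 from 4.33 to 5.31 and Cacnb2 against Cacnb4 from 1.42 to 3.35. No direction changed, and no p could pass the threshold. Multiplying by length moved the family shares to 50.5% for Cacna1f, 76.7% for Cacna2d4, 39.8% for Cacnb2 and 43.5% for Cabp4, the lengths being the cause by construction. Leaving out a replicate moved these shares by less than their SD. The 9 and 4 members at 1 and 10 RPKM were the same by the mean, after scaling and without each replicate. With limma, 683 of all genes were called as varying, and 0 with the non-robust prior (704 at an unadjusted p under 0.05), 185 without each symbol that is another symbol plus 1 or more digits and without that shorter symbol, and between 296 and 477 without 1 replicate. In each of these fits 0 of 9 members were called, which says nothing of the members where no gene was called. Depth is unknown, so the counting error of the low subunits could not be given. No paired analysis was possible because there was 1 group.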

Other observations

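Of 18 further channel subunit genes, 15 reached 1 RPKM in each replicate and 9 reached 10 RPKM, against 77.5% and 33% of all genes. The highest was a gamma gene, Cacng7, with 110.15, 98.79 and 102.3 RPKM in replicates 1, 2 and 3 (104 ± 5.82, SD, n = 3). It took 60.6% ± 2.63 of the gamma family, and encodes a membrane protein known for regulating AMPA receptors as well as by its relation to calcium channels. Cacng4 (28.0 ± 3.29 RPKM), Cacng3 (19.0 ± 2.93) and Cacng5 (13.6 ± 1.04), also AMPA receptor auxiliary proteins, followed. Cacng1, the gamma subunit of skeletal muscle, had 0.10, 0.08 and 0.05 RPKM, and Cacng6 was listed at 0 in replicate 1 and had 0.04 and 0.02 in replicates 2 and 3. Nalcn, the sodium leak channel, had 4.66 ± 0.443 RPKM.

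Among 8 regulators of these channels, Gem, a small GTPase that reduces calcium current, had 9.15 ± 1.22 RPKM, while Rem2 (1.14 ± 0.356), Rrad (0.597 ± 0.0709) and Rem1 (0.180 ± 0.090) of the same family were low. Kcnma1, the calcium-activated potassium channel, had 12.1 ± 1.10. Stac, an adaptor of L-type channels, had 0.76, 1.04 and 35.02 RPKM in replicates 1, 2 and 3, and its relative Stac2 had 34.14, 36.41 and 1.01, so each was high where the other was low. Their sum was 34.9, 37.45 and 36.03 RPKM (36.1 ± 1.28), far steadier than either. The symbol Stac2 is Stac with a digit appended. No member of the photoreceptor set or of the other subunits had a symbol that is another symbol plus 1 or more digits, or that becomes one with digits added. Genes without such symbols varied as well, since 185 of 10688 were still called in the limma test. Whether any member had values of another gene was not tested. Stac3 had 2.77, 2.86 and 1.08 RPKM.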
